A study of Mus musculus with 12 samples.

Results

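The dependence of the ischemia response on genotype was measured in microglia, the macrophages that reside in the brain, grown as primary cultures from mice of 2 labelled genotypes, wild type and TLR4 knockout. All 12 of the 12 arrays of the series were used, and they fall into 4 groups of 3, control and ischemia for each genotype. Ischemia was 24 h of hypoxic or hypoglycemic culture, control cells had normal oxygen and glucose for that time, and every culture then had 24 h of normal conditions as reperfusion. The arrays carry numbers from 1 to 3 within each group, and a pair is the ischemia array and the control array of 1 genotype with the same number, which gives 3 pairs per genotype. The quantity described is the interaction: the mean change over the knockout-labelled pairs minus the mean change over the wild-type pairs, on the log2 scale. A negative interaction means that the knockout-labelled change lay below the wild-type change. The comparison asks whether the response to ischemia and reperfusion differs with the Tlr4 genotype, and the genotypes share no control array.

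The labels limit these groups in several ways. The strain, age and sex of the mice, the allele behind the word knockout and the origin of the replicates are not described, so each p-value reflects the spread among the arrays at hand, and that spread may be technical. For the wild-type ischemia arrays the source name reads as normoxic control, while their titles and the key of the series read as hypoxia, and the groups here follow the titles. Myocytes are named in the extraction protocol, where every other label names microglia. Of 14 microglia markers, 13 had a probe set and 12 had a mean signal above the filter on dim probe sets (5.36 log2), with Csf1r, the receptor for colony-stimulating factor 1, brightest at 12.27 and Gpr34 below the filter at 4.84. The 10 muscle markers had mean signals between 5.31 and 7.13, with 9 of them above the filter. The signal of Tlr4 itself did not separate the genotypes, as described with the receptor pathway, so the group is called knockout-labelled throughout.

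Tlr4 is the receptor for bacterial lipopolysaccharide and for several molecules released by injured cells. It signals through the adaptor MyD88 to NF-kB and inflammatory cytokines, and from endosomes through the adaptor TRIF to Irf3 and type I interferon. Interferon then acts through its receptor, JAK kinases and transcription factors that include Stat2 and Irf9 to switch on the interferon-stimulated genes, many of which encode antiviral proteins. Microglia express the receptor and use both branches.

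Of 15273 genes tested, 47 were called for the interaction (0.308%), meaning a Benjamini-Hochberg adjusted p under 0.05 in limma. In 45 the knockout-labelled change lay below the wild-type change (0.295% of all genes), and in 2, Chek1 and Hells, it lay above (0.0131%). The 45 included 18 genes of a list of interferon-stimulated genes, along with chemokines, antigen-processing genes and macrophage surface receptors. Of the 45, 44 rose in wild-type microglia, by 0.52 to 2.23 on the log2 scale with a median of 1.16, and 0 of these 44 were called in the knockout-labelled pairs. The 45 were chosen by the difference between these same changes, so this contrast is largely built in and is a description. Over all genes, 570 were called in the wild-type pairs (3.73%), of which 457 rose (2.99%) and 113 fell, and 99 were called in the knockout-labelled pairs (0.648%). Both genotypes were judged by 1 spread per gene, shared by all 6 pairs. The median knockout-labelled change of the 44 that rose in the wild type was -0.06, with 30 negative and 14 positive. The remaining gene of the 45 was Cxcl16, which fell in the knockout-labelled pairs. In bulk samples such as these, fewer cells of a type and less RNA per cell cannot be told apart.

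In each of the 47, the 3 wild-type and the 3 knockout-labelled pair changes did not overlap, which was so for 14.0% of all genes tested, and for 8.14% with the knockout-labelled pairs lower. The 47 were called from these same pair changes, so the lack of overlap largely follows from the choice. The count depends on the pairing. With the pairing left out of the same limma model (no replicate block), 0 genes were called (0%), the smallest adjusted p was 0.9996, and 443 genes had an unadjusted p under 0.05 against 1291 with the pairs. The interactions themselves are the same in both fits, and the median SE of the 47 was 0.18 with pairs and 0.52 without. A fit over all 24890 probe sets above the filter, named or not, also called 0, with a smallest adjusted p of 0.134 and 1669 probe sets at an unadjusted p under 0.05. A 3-level replicate block, which gives a number the same effect in both genotypes, called 0 as well (limma, smallest adjusted p 0.325). Leaving out 1 pair at a time gave 26 calls without wild-type pair 1, 30 without wild-type pair 2, 49 without wild-type pair 3, and 25, 20 and 27 without knockout-labelled pair 1, 2 and 3. Of the 47 genes, 16 were called in all 6 of these fits.

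**Figure D1:**
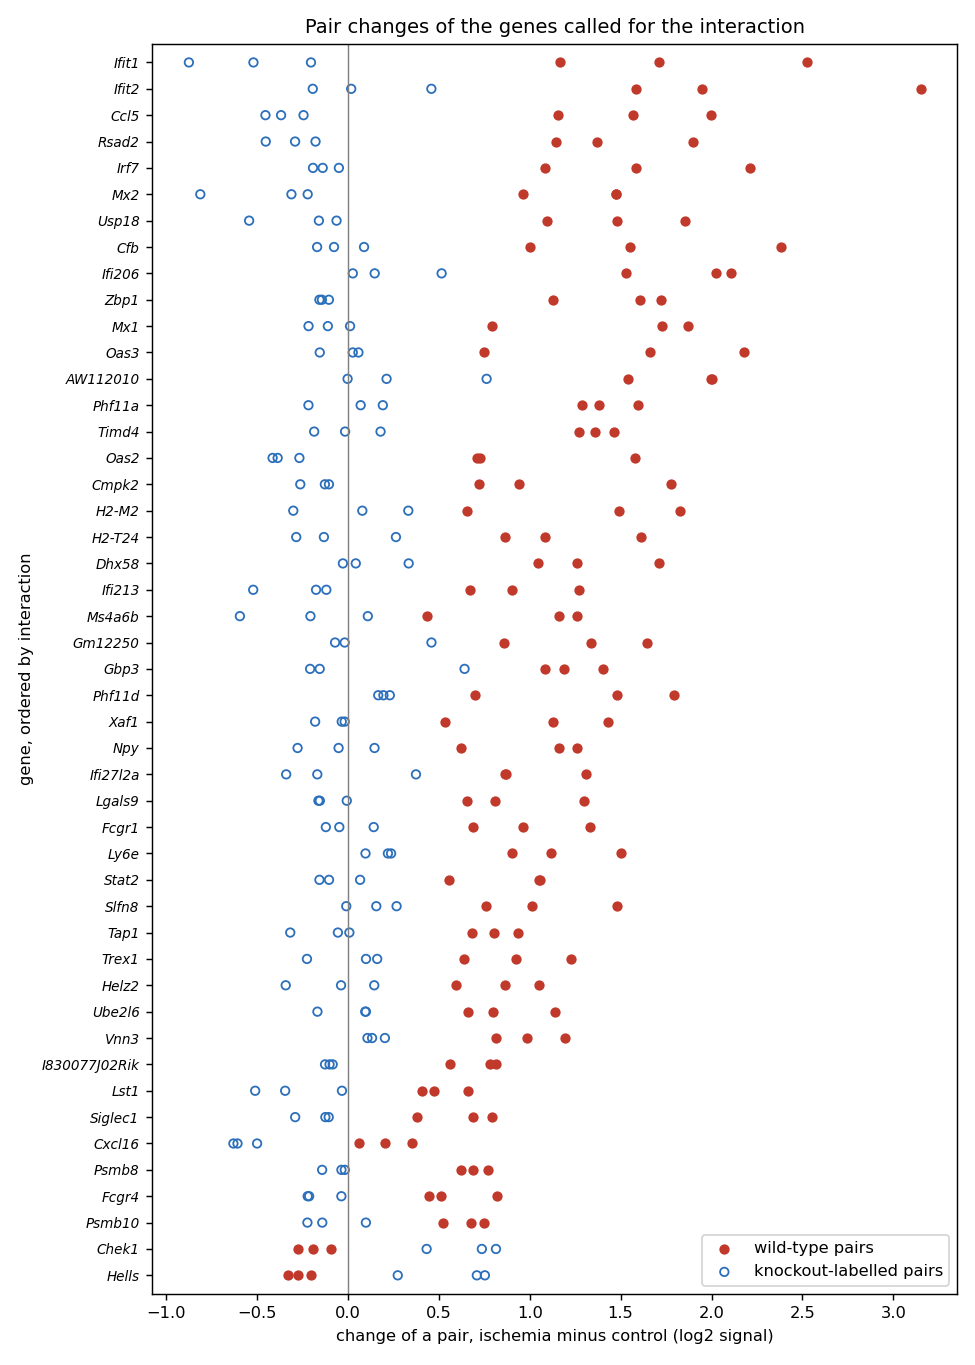
Change of each pair, ischemia minus control, in log2 signal, for the 47 genes called for the interaction, ordered from the most negative interaction at the top. Filled red points are the 3 wild-type pairs and open blue points the 3 knockout-labelled pairs; the 2 sets do not overlap in any gene, and the knockout-labelled points of the 45 genes with a negative interaction lie between -0.87 and 0.76.

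The antiviral effectors led the list. Ifit1 binds viral RNA that lacks a host-type cap. Its signal on wild-type control arrays 1, 2 and 3 was 5.94, 8.59 and 6.50 log2, and on the wild-type ischemia arrays 8.46, 10.30 and 7.67. In knockout-labelled cells it was 5.27, 5.82 and 5.05 in control and 4.75, 4.95 and 4.85 after ischemia. The number 2 wild-type arrays were highest in both conditions, so that single control and ischemia arrays overlapped in the wild type while every pair rose, and each knockout-labelled pair was lower after ischemia. The wild-type change was 3.49-fold and the interaction -2.33 (SE 0.27, 95% interval -2.91 to -1.75; limma, adjusted p = 0.00106). Ifit2, of the same family, had wild-type pair changes of 3.15, 1.95 and 1.59 against 0.02, -0.19 and 0.46 in knockout-labelled pairs, an interaction of -2.13 (limma, adjusted p = 0.00747). Ifit3 had a similar difference, -1.89, but its wild-type pairs spread from 1.26 to 3.66 and it was not called (limma, adjusted p = 0.203).

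Rsad2 encodes viperin, an enzyme that makes a chain-terminating nucleotide. Its wild-type control signals were 6.58, 8.93 and 7.01 and rose to 8.48, 10.30 and 8.15, while the knockout-labelled signals were 6.18, 6.65 and 5.94 in control and 5.89, 6.19 and 5.76 after ischemia. All 6 knockout-labelled arrays lay below or within the wild-type control range, and the interaction was -1.78 (SE 0.18; limma, adjusted p = 0.000591). Cmpk2, which neighbours Rsad2 on chromosome 12 and encodes a mitochondrial nucleotide kinase, had an interaction of -1.31. The dynamin-like GTPases Mx1 and Mx2, which trap viral nucleocapsids, had interactions of -1.57 and -1.75. For both, each knockout-labelled mean was at or below the filter on dim probe sets, so their knockout-labelled changes were measured close to the lower end of the signal range. The oligoadenylate synthetases Oas2 and Oas3, which activate RNase L on double-stranded RNA, had interactions of -1.36 and -1.55; the wild-type pairs of Oas3 ranged from 0.75 to 2.18, and it was called in only 2 of the 6 fits that leave out a pair.

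Members of gene families can share probes with near-identical copies (Ifit, Mx, Oas, Phf11, Ifi200, guanylate-binding, Schlafen, H2 and Fc receptor genes), and the array signal cannot always be assigned to 1 copy. Within that limit, the other effectors of the 45 are listed here, and their negative sign follows from the choice of the 45. Ifi27l2a, an interferon-induced mitochondrial protein, had an interaction of -1.06, Xaf1, an antagonist of the apoptosis inhibitor XIAP, -1.11, and Slfn8 of the Schlafen family -0.95. Trex1, the exonuclease that clears cytosolic DNA, had -0.92, and the interferon-induced helicase Helz2 -0.91. Ly6e, a surface protein that affects viral entry, was bright in every group: its wild-type control signals of 10.40, 11.55 and 10.46 rose to 11.90, 12.45 and 11.58, against 9.25, 9.13 and 9.56 changing to 9.47, 9.36 and 9.66 in knockout-labelled cells. All 3 of its knockout-labelled pairs were higher after ischemia by 0.10 to 0.24, less than the smallest wild-type rise of 0.90, and the interaction was -0.99 (limma, adjusted p = 0.0186).

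Of 5 transcription factors of the response that were tested, Irf7 and Stat2 were called. Irf7 amplifies type I interferon production. Its wild-type control signals of 7.94, 10.60 and 8.96 became 10.16, 12.18 and 10.05 after ischemia, whereas the knockout-labelled signals of 6.65, 7.12 and 7.17 became 6.60, 6.98 and 6.98. The knockout-labelled arrays were all below every wild-type array in either condition, and their pairs moved by -0.05 to -0.19. The wild-type rise was 3.09-fold and the interaction -1.75 (SE 0.22; limma, adjusted p = 0.00226). Stat2, the interferon-specific STAT, changed by 1.05, 1.06 and 0.55 in wild-type pairs and by -0.16, -0.10 and 0.07 in knockout-labelled pairs, an interaction of -0.95 (limma, adjusted p = 0.0209). Irf9, its DNA-binding partner, had an interaction of -0.65 that was not called (limma, adjusted p = 0.0899), and the myeloid factor Irf8 had -0.26 with an adjusted p of 0.693 in limma.

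Sensors of foreign nucleic acid and regulators of the pathway were also among the 45. Zbp1, a sensor of Z-form nucleic acid, rose by 1.72, 1.60 and 1.13 in wild-type pairs and changed by -0.10, -0.14 and -0.16 in the others (interaction -1.62; limma, adjusted p = 0.000591). Dhx58, which encodes the RNA sensor LGP2, had an interaction of -1.22, and its knockout-labelled pairs changed by -0.03, 0.04 and 0.33. The Ifi200 family members Ifi206 and Ifi213, relatives of cytosolic DNA sensors, had -1.65 and -1.22, with knockout-labelled signals of 5.90 log2 or less on every array. Usp18, the protease that removes Isg15 and dampens the interferon receptor, had -1.73, and Ube2l6, the conjugating enzyme for Isg15, -0.86. Ube2l6 is the only one of the 45 whose ischemia arrays overlapped between genotypes, at 8.88, 10.30 and 8.39 in the wild type and 8.44, 8.20 and 8.05 in knockout-labelled cells. The guanylate-binding and immunity-related GTPases were represented by Gbp3 (-1.13) and Gm12250 (-1.16).

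The list of interferon-stimulated genes held 70 names, of which 60 had a probe set with 1 gene symbol and 57 passed the filter. All 57 had a negative interaction, with a median of -0.79 against 0.01 over all genes tested, where 48.4% were negative. Of the 57, 18 were called, against 0.308% of all genes, and 40 had pair changes that did not overlap, against 14.0%. In wild-type pairs 50 of the 57 rose, against 2.99% of all genes, and 0 fell. In knockout-labelled pairs 0 rose and 0 fell, by the same spread per gene as in the wild type. Of all 15273 genes tested only 82 rose and 17 fell there, so these 0 counts say little about the list. By role, 11 of 30 effectors, 2 of 8 sensors, 2 of 5 transcription factors, 1 of 4 GTPases and 2 of 10 genes of ubiquitin-like and PARP modification were called. The mean change over the 57 was 1.27, 0.92 and 0.65 in wild-type pairs 1, 2 and 3, and -0.06, 0.00 and 0.17 in knockout-labelled pairs. These genes overlap with ones already known from these data to rise in the wild type, so the list is a description.

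**Figure D2:**
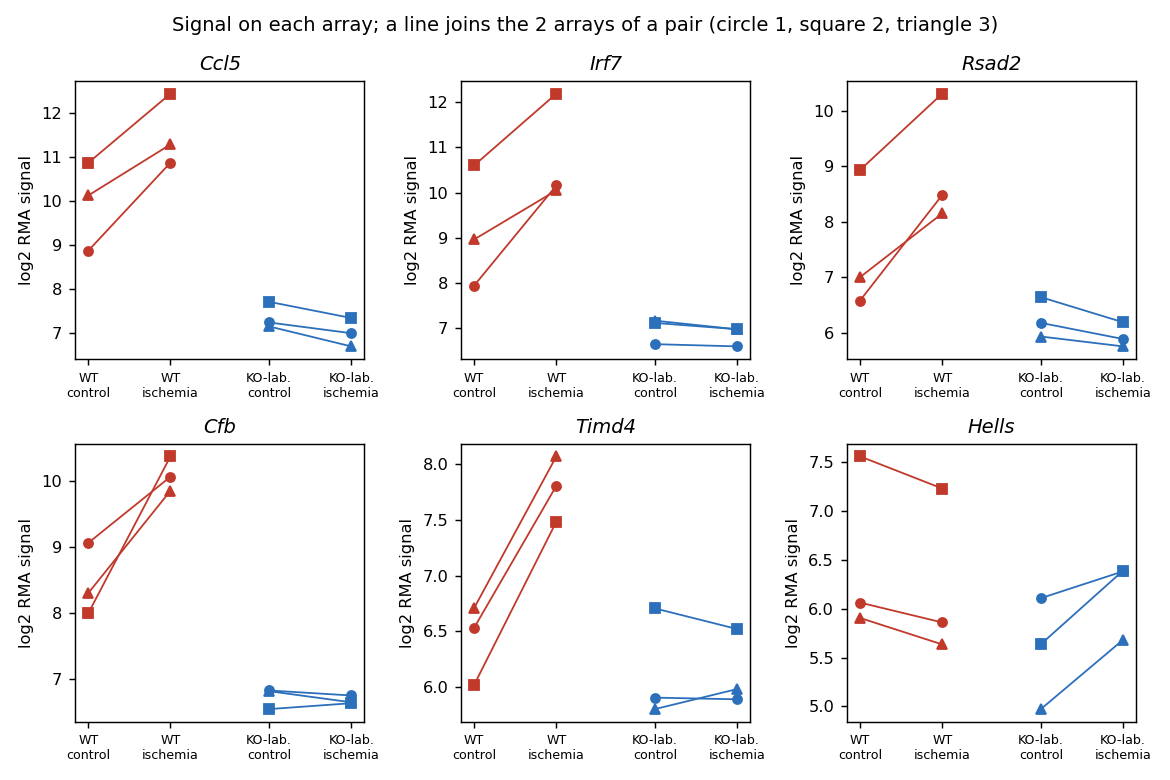
Log2 RMA signal of 6 genes on each of the 12 arrays, with wild type (WT) in red and knockout-labelled (KO-lab.) in blue; a line joins the control and ischemia arrays of a pair, and the marker gives the pair number. In Ccl5, Irf7, Rsad2, Cfb and Timd4 every wild-type line rises by more than each knockout-labelled line of that gene, whose changes lie between -0.45 and 0.18, and in Hells the wild-type lines fall and the knockout-labelled lines rise.

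Because these genes moved together, their promoters were searched for the core of the interferon-stimulated response element, a site bound by Irf proteins and by complexes with Stat2 and Irf9. The motif was GAAA, 2 bases of any kind and GAAA, on either strand, in the 300 bases from 250 before to 50 after each RefSeq transcript start (GRCm38.p6). It was present in 13 of the 31 genes with a negative called interaction that had a promoter in the table (41.9%), in 39 of the 343 genes that rose in the wild type without a called interaction (11.4%), in 426 of 12054 genes tested (3.53%) and in 1079 of 27025 genes of the table (3.99%). A match is a description of letters and not a measured binding site. The promoters of Ifit1 (chr19:34640639-34640938, plus strand), Rsad2 (chr12:26456403-26456702, minus strand) and Oas3 (chr5:120777610-120777909, minus strand) are shown as 3 effectors with matches, and that of Chek1 (chr9:36726609-36726908, minus strand) because it holds a match although its interaction is positive. Each reads 5′ to 3′ on the strand of its gene, with the matches in capitals. The matches start at -104 and -85 in Ifit1, -120 in Rsad2, -75 in Oas3 and -200 in Chek1, counted from the transcript start.
Ifit1: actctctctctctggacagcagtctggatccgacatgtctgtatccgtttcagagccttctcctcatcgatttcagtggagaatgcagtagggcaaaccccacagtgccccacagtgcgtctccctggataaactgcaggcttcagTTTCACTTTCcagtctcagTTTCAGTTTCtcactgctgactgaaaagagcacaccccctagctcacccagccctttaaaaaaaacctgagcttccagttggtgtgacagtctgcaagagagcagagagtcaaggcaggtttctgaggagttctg
Rsad2: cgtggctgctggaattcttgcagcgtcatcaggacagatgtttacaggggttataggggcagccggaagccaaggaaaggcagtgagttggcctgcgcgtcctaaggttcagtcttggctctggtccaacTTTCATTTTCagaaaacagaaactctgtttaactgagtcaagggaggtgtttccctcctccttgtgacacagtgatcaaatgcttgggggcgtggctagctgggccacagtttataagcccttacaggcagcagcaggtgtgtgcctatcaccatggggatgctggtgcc
Oas3: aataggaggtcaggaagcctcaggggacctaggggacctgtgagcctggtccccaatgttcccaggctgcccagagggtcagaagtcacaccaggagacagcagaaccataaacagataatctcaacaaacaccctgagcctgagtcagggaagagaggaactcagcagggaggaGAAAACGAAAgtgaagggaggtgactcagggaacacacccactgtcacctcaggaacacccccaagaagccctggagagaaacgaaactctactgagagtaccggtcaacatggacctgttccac
Chek1: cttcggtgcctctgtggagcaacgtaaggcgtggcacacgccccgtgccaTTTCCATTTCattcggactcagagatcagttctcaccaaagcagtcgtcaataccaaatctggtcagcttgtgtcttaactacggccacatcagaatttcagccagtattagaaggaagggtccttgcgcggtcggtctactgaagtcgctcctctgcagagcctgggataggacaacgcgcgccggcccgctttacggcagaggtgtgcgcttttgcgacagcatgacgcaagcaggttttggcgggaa
The promoters of Ifit2, Irf7 and Cmpk2 held no match in this window.

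Among secreted factors, Ccl5, a chemokine for T cells and monocytes, had the strongest difference. Its wild-type control signals were 8.87, 10.86 and 10.12 and its wild-type ischemia signals 10.86, 12.43 and 11.28, while the knockout-labelled arrays read 7.24, 7.71 and 7.15 in control and 7.0, 7.34 and 6.70 after ischemia. Every wild-type array was above every knockout-labelled array, every wild-type pair rose and every knockout-labelled pair was lower after ischemia. The wild-type rise was 2.98-fold and the interaction -1.93 (SE 0.18, 95% interval -2.33 to -1.53; limma, adjusted p = 0.000591). Cxcl16, a chemokine made as a membrane-bound scavenger receptor, was the exception in form. Its wild-type pairs changed by 0.35, 0.06 and 0.20, which was not called (limma, adjusted p = 0.207), and its knockout-labelled pairs by -0.61, -0.50 and -0.63, which was (limma, adjusted p = 0.0182). The interaction of Cxcl16 was -0.78 (limma, adjusted p = 0.0246), and it was called in 1 of the 6 fits that leave out a pair.

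In the list of inflammatory cytokines and effectors these were the 2 called genes of 29 tested, against 0.308% of all genes, and the median interaction was -0.02. Acod1, the itaconate-making enzyme of activated macrophages, had -0.99, and the interferon-induced chemokines Cxcl9 and Cxcl10 -0.92 and -0.91, none of them called (limma, adjusted p = 0.118, 0.478 and 0.121). The 5 genes of this list that rose in the wild type, where 2.99% of all genes did, were Ccl5, Acod1, Casp4, Il18 and Saa3. In knockout-labelled pairs 0 rose, where 82 of all 15273 genes tested did, so that count says little about the list. The mean change over the list was 0.39 in wild-type pair 2 and -0.01 and 0.11 in pairs 1 and 3.

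Complement factor B (Cfb), the protease component of the alternative pathway, had an interaction of -1.70 (SE 0.25; limma, adjusted p = 0.0102). Its wild-type arrays read 9.07, 8.0 and 8.31 in control and 10.07, 10.38 and 9.86 after ischemia, and its knockout-labelled arrays 6.83, 6.55 and 6.82 and then 6.75, 6.64 and 6.65. Here number 2 was the lowest wild-type control and the highest wild-type ischemia array, unlike in the antiviral genes, and all knockout-labelled arrays lay more than 1 log2 unit below all wild-type arrays. Cfb was the 1 called gene of 12 complement genes tested, against 0.308% of all genes. The median interaction of the 12 was -0.20. The 3 chains of C1q, which starts the classical pathway, had interactions of -0.60 (C1qa), -0.66 (C1qb) and -0.58 (C1qc). Their pair changes did not overlap, which was so for 14.0% of all genes. For C1qb, the wild-type pairs changed by 0.34, 0.10 and 0.19 and the knockout-labelled pairs by -0.49, -0.46 and -0.40, and the interaction was not called (limma, adjusted p = 0.066). C1qa and C1qb fell in knockout-labelled pairs (limma, adjusted p = 0.0374 and 0.0474), and C2 had an interaction of -0.61 that was not called.

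Genes of antigen processing made up a further group of the 45. Tap1, a subunit of the transporter that brings peptides to MHC class I, changed by 0.80, 0.93 and 0.69 in wild-type pairs and by -0.05, 0.01 and -0.32 in knockout-labelled pairs (interaction -0.93; limma, adjusted p = 0.013), and it was called in 5 of the 6 fits that leave out a pair. The immunoproteasome subunits Psmb8 and Psmb10 had interactions of -0.76 and -0.74 (limma, adjusted p = 0.0234 and 0.0469), and neither was called in any of those 6 fits. Psmb10 started from similar control levels, 9.08, 9.40 and 9.13 in the wild type and 9.05, 9.37 and 9.57 in knockout-labelled cells, and separated after ischemia at 9.75, 9.92 and 9.88 against 9.15, 9.15 and 9.43. The nonclassical MHC genes H2-M2 and H2-T24, which were on no list, had interactions of -1.29 and -1.24. Of 19 antigen presentation genes tested, 16 had a negative interaction, against 48.4% of all genes, and the median was -0.45. Called for the interaction were 3, against 0.308% of all genes. In the wild type 10 rose, against 2.99% of all genes. In knockout-labelled pairs 2 rose, Cd80 and Cd86, against 82 of all 15273 genes tested. H2-Aa and Cd74, which act in MHC class II presentation, had -0.98 and -0.85, but their wild-type pair 2 changed by only 0.23 and 0.13 and they were not called (limma, adjusted p = 0.323 and 0.417).

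The other genes of the 45 include surface receptors of macrophages. Timd4, a phosphatidylserine receptor for dying cells, had an even wild-type response: its signals went from 6.53, 6.02 and 6.71 to 7.81, 7.49 and 8.07, pair changes of 1.27, 1.46 and 1.36. The knockout-labelled signals of 5.91, 6.71 and 5.80 went to 5.89, 6.52 and 5.98, so that control arrays overlapped between genotypes and ischemia arrays did not (interaction -1.37; limma, adjusted p = 0.000591). The Fc gamma receptors Fcgr1 and Fcgr4 had interactions of -1.0 and -0.75, and Siglec1, the sialic acid receptor CD169, -0.79. Ms4a6b, a membrane protein of the Ms4a family, had -1.18, and Lst1, an adaptor-like protein of leukocytes, -0.81. Lgals9, the secreted lectin galectin-9, had -1.03.

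The rest were of mixed or poorly known role. AW112010, an interferon-inducible transcript, read 7.54, 7.54 and 7.63 in wild-type control and 9.54, 9.53 and 9.17 in wild-type ischemia and 6.61, 7.06 and 6.16 against 6.82, 7.06 and 6.92 in knockout-labelled cells. Its knockout-labelled pair 3 changed by 0.76 where pairs 1 and 2 changed by 0.21 and 0.00, and the interaction was -1.52 (limma, adjusted p = 0.00281). The PHD finger genes Phf11a and Phf11d had -1.41 and -1.13, and the last of the group were Vnn3 (-0.85), a pantetheinase, I830077J02Rik (-0.82) and Npy (-1.08), which encodes neuropeptide Y. For Npy the wild-type pairs rose by 1.16, 0.62 and 1.26 from control signals of 9.13, 8.39 and 8.42.

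In 43 of the 45 the knockout-labelled mean was already below the wild-type mean in control culture. The median difference over the 45 was -0.89 in control and -2.12 after ischemia. The difference between genotypes in control was not itself tested. All 3 knockout-labelled control arrays lay below all 3 wild-type control arrays for 23 genes, which was so for 4.52% of all genes tested, and the same held after ischemia for 44 genes, against 8.07%. The exceptions with a higher knockout-labelled control mean were Psmb10 and I830077J02Rik. These control arrays also enter the interaction, so the gaps and the interaction are not independent. A knockout-labelled mean was at or below the filter on dim probe sets for 6 genes (Ifit1, Ifit2, Mx1, Mx2, Ifi206 and Ifi213), where a fall could not be followed far. For the 12 genes whose knockout-labelled control mean was above 8 log2, among them Stat2, Ly6e, Siglec1, Fcgr1, Tap1 and Psmb8, the interaction ran from -1.08 to -0.74.

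**Figure D3:**
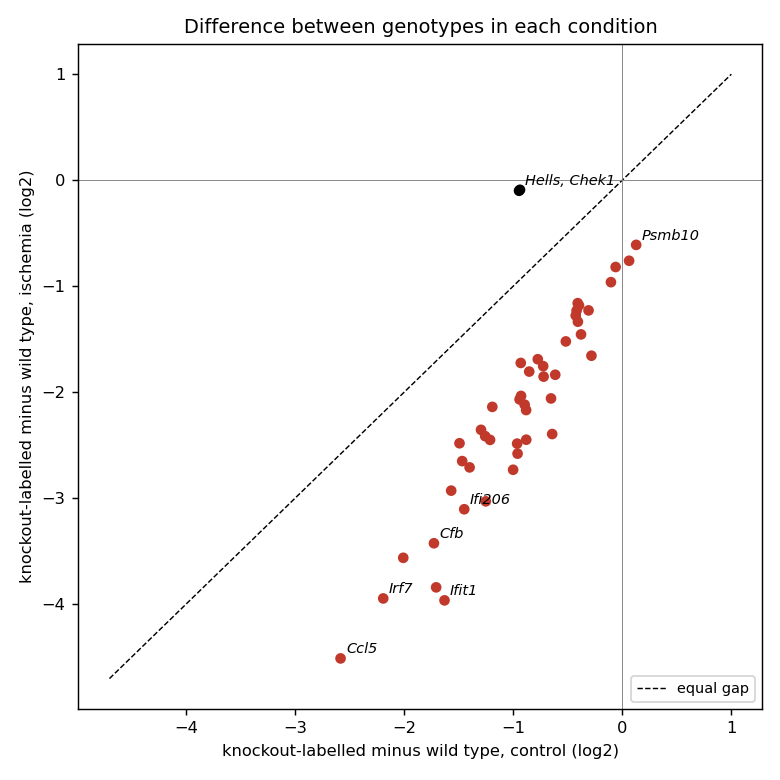
Knockout-labelled mean minus wild-type mean in control cells (x axis) and after ischemia (y axis), in log2 units, for the 47 called genes; the dashed line marks equal differences. The 45 red points lie below the line, from Ccl5 at the lower left to Psmb10 near 0 in control, and the 2 black points, Hells and Chek1, lie above it.

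In the 45 genes, the wild-type pairs differed among themselves more than the knockout-labelled pairs. These genes were chosen by their pair changes, and no share over all genes was computed for the SD or the largest rise. The SD over the wild-type pairs was above that over the knockout-labelled pairs for 35 of the 45, with medians of 0.32 and 0.15. The fit gives all 6 pairs 1 spread per gene, so its calls in each genotype do not reflect this difference. Among the 45, the largest of the 3 wild-type rises was in pair 1 for 27 genes, in pair 2 for 14 and in pair 3 for 4, and the smallest was in pair 3 for 31. The mean level of the 57 interferon-stimulated genes was 7.75, 9.18 and 8.06 on wild-type control arrays 1, 2 and 3, so number 2 stood apart before ischemia. The mean of the 12 tested microglia markers was highest on the same array, at 9.53 against 8.73 and 8.88, and so was that of the 32 cell division genes, at 8.08 against 7.13 and 6.99; the part of these differences in the results was not tested. Without wild-type pair 2 the interaction called 30 genes, all negative.

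Chek1 and Hells were the only genes with a positive called interaction. Chek1 encodes the checkpoint kinase that restrains the cell cycle when replication stalls, and Hells a chromatin remodelling helicase of dividing cells. Chek1 read 5.45, 7.02 and 5.52 in wild-type control, 5.26, 6.93 and 5.25 in wild-type ischemia, 5.60, 5.09 and 4.46 in knockout-labelled control and 6.04, 5.90 and 5.20 in knockout-labelled ischemia. Its knockout-labelled pairs rose by 0.43, 0.81 and 0.74 and its wild-type pairs changed by -0.19, -0.09 and -0.27, an interaction of 0.85 (SE 0.14; limma, adjusted p = 0.0228). Its knockout-labelled control mean, 5.05, lay below the filter on dim probe sets, and with no filter it was not called (limma, adjusted p = 0.0529). Hells rose by 0.27, 0.75 and 0.71 in knockout-labelled pairs and changed by -0.20, -0.33 and -0.27 in wild-type pairs, also 0.85 (limma, adjusted p = 0.0309). The wild-type change was not called for either gene (limma, adjusted p = 0.276 and 0.155). Both had their lowest control signal on knockout-labelled control array 3, which had the lowest median correlation with the other arrays (0.976, against 0.982 to 0.987), and both were called in only 1 of the 6 fits that leave out a pair, the one without knockout-labelled pair 1. Without knockout-labelled pair 3 their interactions were 0.81 and 0.78, with limma adjusted p of 0.0735 and 0.116.

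The next positive interactions by p-value were not called: Abcb4, a phospholipid transporter (0.70; limma, adjusted p = 0.0526), Mir26a-1 (0.65), the CTP synthase gene Ctps (0.63), the histone gene H2bc3 (0.67), Trim80 (0.82) and Itgb3, an integrin chain (0.64). Their limma adjusted p from Mir26a-1 on ran from 0.0996 to 0.118. Ctps rose in each knockout-labelled pair, by 0.51, 0.59 and 0.79, and changed by 0.05, 0.07 and -0.11 in the wild type. The mean pair changes of the 32 cell division genes tested were -0.23, -0.77 and -0.11 in the wild type and -0.09, -0.13 and 0.00 in knockout-labelled pairs, with wild-type pair 2 apart. Of these genes 29 had a positive interaction (median 0.25), against 7883 of all 15273 genes tested. In the wild type 9 of them fell, against 113 of all 15273. For the interaction 0 were called, where 0.308% of all genes were, so that count says little about cell division. Top2a, the topoisomerase of dividing cells, had the highest interaction of all genes tested, 1.08, with wild-type pair changes of -0.53, -1.76 and -0.66 (limma, adjusted p = 0.237), and Ccna2, Rrm2 and Kif11 had 0.99, 0.76 and 0.73.

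**Figure D4:**
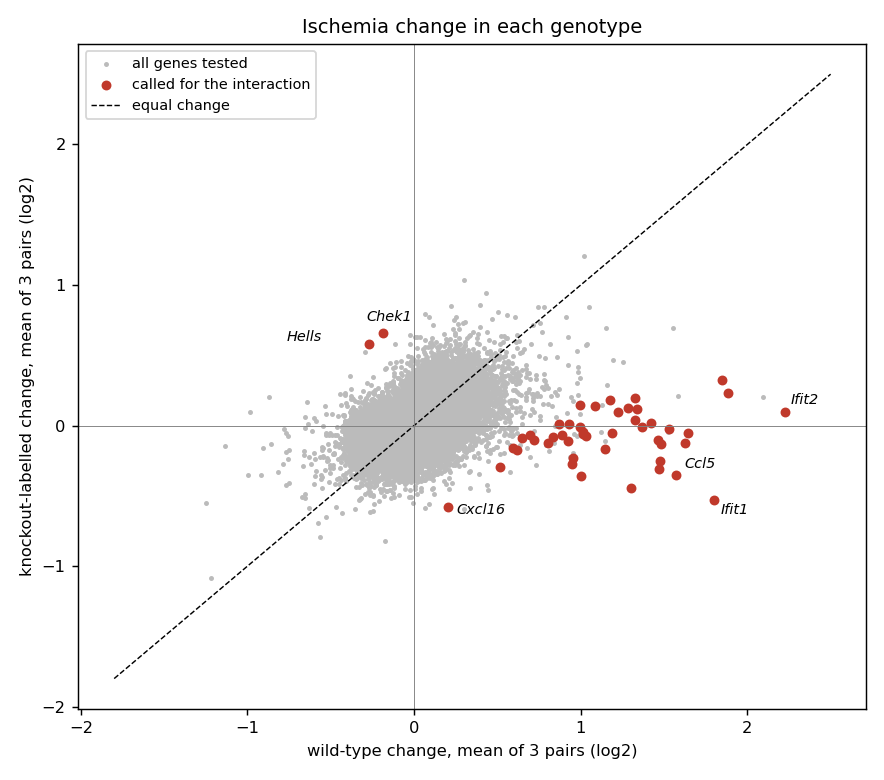
Mean change over 3 pairs in the wild type (x axis) and in knockout-labelled cells (y axis), in log2 units, for all 15273 genes tested (grey) and the 47 called for the interaction (red); the dashed line marks equal change. The red points spread to the right along the horizontal zero line, with Ifit2 farthest at a wild-type change of 2.23.

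The receptor itself overlapped between the groups. Tlr4 read 8.67, 8.90 and 8.72 in wild-type control, 8.58, 9.02 and 8.54 in wild-type ischemia, 8.97, 8.64 and 8.39 in knockout-labelled control and 8.93, 8.76 and 8.59 in knockout-labelled ischemia. Its interaction was 0.14 (95% interval -0.16 to 0.45; limma, adjusted p = 0.788). The labels do not say which part of the gene was altered. A probe set outside an altered part would keep its signal, and whether this holds here was not tested. Of 42 listed Toll-like receptor pathway genes, 37 were tested, 32 had a negative interaction with a median of -0.19, and 8 had an unadjusted p under 0.05, against 8.45% of all genes. None of the 37 was called, where 0.308% of all genes were, so that count says little about the pathway. Cd180, Ly86, Tlr3, Tlr8 and Ikbke rose in the wild type, where 2.99% of all genes did. In knockout-labelled pairs 0 members were called, where 0.648% of all genes were, so that count says little either. The largest interactions were those of the NF-kB inhibitors Nfkbib (-0.51) and Nfkbie (-0.40) and the endosomal receptors Tlr9 (-0.51) and Tlr3 (-0.51), with limma adjusted p of 0.236 to 0.533. The adaptors had small values, -0.14 for Myd88 and -0.19 for Ticam1, which encodes TRIF, and the lipopolysaccharide co-receptor Cd14 had -0.21.

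The genes of interferon production and reception had a median interaction close to that of all genes. Of 18 listed interferon ligands, receptors, kinases and brakes, 16 were tested, with a median interaction of -0.03 against 0.01 over all genes; 0 were called in limma, near the 0.308% of all genes, and 0 had an unadjusted p under 0.05. Ifnb1 and Ifna4, which encode type I interferons, were below the filter on dim probe sets. The interferon receptor chains Ifnar1 and Ifnar2 had 0.08 and -0.20, with 95% intervals of -0.20 to 0.36 and -0.51 to 0.11, and the ligand gene Ifna2 0.43 (limma, adjusted p = 0.594). The kinase Tyk2 had -0.29 and the ligands Ifnl2 and Ifng 0.22 and -0.20, none called. Ifnl2 fell in the wild type, by -0.41, -0.45 and -0.33 in its pairs (limma, adjusted p = 0.0485), and changed by 0.07, -0.29 and -0.33 in knockout-labelled pairs. The pair changes of Ifnl2 and of Ifng did not overlap between genotypes, those of Ifnl2 by less than the last digit printed. These were 2 of the 16 genes, near the 14.0% of all genes tested, so that count says little about them.

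In other programmes of hypoxic or activated microglia 0 genes were called in limma, where 0.308% of all genes were, so the lists are given by their medians. The 27 hypoxia-inducible factor genes had a median interaction of 0.02, with 1 gene at an unadjusted p under 0.05, Ddit4, a stress-induced brake on mTOR (0.41); Ndrg1, Epas1 and Hif1a had -0.31, -0.29 and 0.26. The 12 glycolysis genes had a median of 0.08, the 20 sterol synthesis genes 0.00, the 23 respiratory chain genes -0.12 and the 8 genes of the liver X receptor and cholesterol efflux -0.22. The 17 NRF2 antioxidant genes had a median of 0.24 and 13 positive values. Of the 17, 5 fell in the wild type, among them the quinone reductase Nqo1, against 113 of all 15273 genes tested. In knockout-labelled pairs 0 of these genes fell, where 17 of all 15273 genes tested did, so that count says little. Me1, Nqo1, Gsta3 and Srxn1 had interactions of 0.59, 0.48, 0.44 and 0.43. The 16 homeostatic and 19 disease-associated microglia genes had medians of -0.13 and -0.01. The largest differences among the remaining lists were those of Chil3 (-0.73), a chitinase-like macrophage protein, the membrane protease Mmp14 (-0.72) and the necroptosis effector Mlkl (-0.76); each rose in the wild type, and their interactions were not called (limma, adjusted p = 0.216, 0.123 and 0.156).

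**Figure D5:**
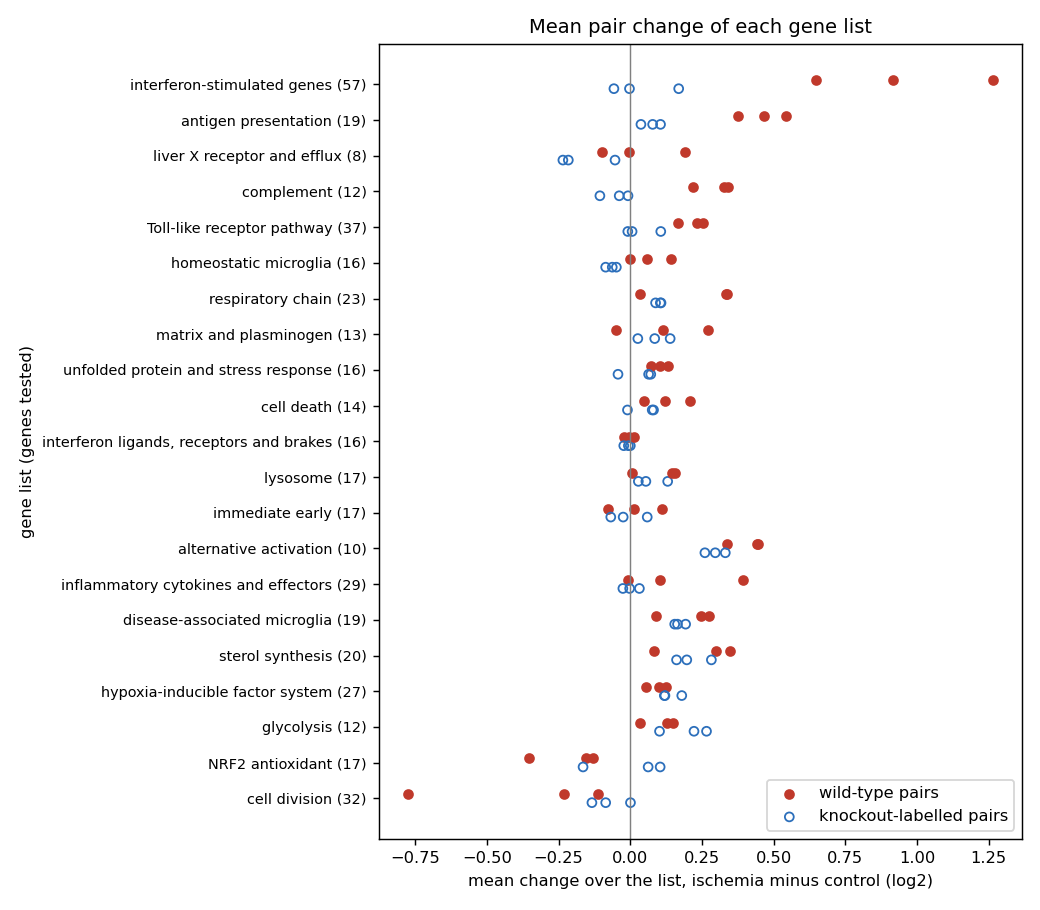
Mean change over the tested genes of each list, ischemia minus control in log2 units, for the 3 wild-type pairs (filled red) and the 3 knockout-labelled pairs (open blue), ordered by the median interaction of the list, with the number of genes tested in brackets. The interferon-stimulated genes lie at 0.65 to 1.27 in the wild type and at -0.06 to 0.17 in knockout-labelled pairs, and the cell division genes lie at -0.77 in wild-type pair 2.

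In 26 genes the change was called in both genotypes, with interactions from -0.46 to 0.30; they were chosen by the changes that make up the interaction, so this range is a description. Il13ra1, a receptor chain for interleukin-13, rose by 0.59, 0.59 and 0.33 in the wild type and by 0.62, 0.82 and 0.98 in knockout-labelled pairs, and the growth factor Csf1 by 0.13, 0.81 and 0.87 and by 0.77, 0.58 and 0.96. Pf4, a platelet-type chemokine of macrophages, rose by 0.70 and 0.58 on average, an interaction of -0.12 (95% interval -0.43 to 0.20). Of the 457 genes that rose in the wild type, 44 were called for the interaction, and of the 113 that fell, 0 were. The wild-type change is part of the interaction, so these counts are a description too. The 95% interval of the interaction reached a median of 0.32 log2 units to either side over all genes, and the called gene with the smallest interaction, Psmb10, was at -0.74.

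In the 10 lists of cell type markers 0 genes were called in limma, where 0.308% of all genes were. Mean levels over the 13 microglia markers with a probe set were 8.40 to 9.22 on wild-type control arrays, 8.51 to 9.21 after ischemia, 8.56 to 8.63 in knockout-labelled control and 8.41 to 8.55 after ischemia. Their pair changes were 0.11, -0.01 and 0.10 in the wild type and -0.14, -0.09 and -0.14 in knockout-labelled pairs, with 9 of the 12 tested interactions negative; the part of this in the results was not tested. Aif1, the microglial protein Iba1, had the largest, -0.72 (limma, adjusted p = 0.106). The list mean of the border-associated macrophage and monocyte markers lay between 6.82 and 7.68 on all arrays. Of 9 with a probe set, 7 were above the filter, with Mrc1 brightest at 11.17, while Ccr2 and Cd163 were below it. The list means of astrocyte markers lay at 6.11 to 6.55, oligodendrocyte lineage markers at 6.63 to 7.24 and neuron markers at 5.53 to 5.94. Those of endothelial markers lay at 6.11 to 6.35 and of fibroblast and mural markers at 6.19 to 6.76. The fibroblast and mural pair changes were -0.48, -0.15 and 0.19 in the wild type. Single members were brighter: the brightest of these 5 lists were Aldoc at 8.69, Cnp at 8.31, Eno2 at 7.23, Vwf at 9.70 and Fn1 at 11.05. The list means of lymphocyte and neutrophil markers lay at 5.12 to 5.68 on all arrays, near the filter. Cd3g, Cd4, Ms4a1, Cd79a and Gzmb, and Ly6g, Ngp, Retnlg and Cxcr2, were below it. Above it were 3 of 8 lymphocyte markers, with Cd3e brightest at 6.60, and 6 of 10 neutrophil markers, with Csf3r brightest at 8.86.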

How the data were processed

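The Affymetrix Mouse Gene 1.0 ST array was used for RNA of 12 samples. The authors deposited 1 log2 signal for each probe set; the submitters' processing notes name RMA and Affymetrix Expression Console 1.1. RMA subtracts background, equalizes quantiles between arrays and summarises probes, and so hides differences of total RNA. Of 35557 probe sets, 21789 had 1 gene symbol, 1621 had several and 12147 were not listed. Of these, 21698 were matched to current symbols by Entrez identifier (GRCm38.p6). The brightest probe set stood for each of 19938 genes, and 15273 with a mean above the 30th percentile of probe sets (5.36) were tested. The number of arrays limits the precision.

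Pair changes, ischemia minus control, were fitted with limma 3.58.1, run in R 4.3.3 (4 residual and 9.71 prior degrees of freedom), with 1 mean per genotype and Benjamini-Hochberg adjustment over all genes; the threshold was 0.05. All 6 pairs shared 1 spread per gene. The steps were tested on simulated data. The pairing comes from the numbers in the sample titles. Deviations from group means of same-numbered arrays correlated at 0.48, 0.73 and 0.48 in the wild type and 0.36, 0.32 and 0.49 in knockout-labelled arrays, all above 0.1. Differently numbered arrays of a genotype correlated at -0.62 to 0.40 and -0.44 to 0.22, each below every same-numbered value of that genotype, and same-numbered arrays across genotypes at -0.33 to 0.33. Deviations cancel out over the 3 arrays of a group, so high same-numbered values lower the others. The gap between them is therefore partly fixed by the centring. What a number stands for is not in the labels. Alternatives were no replicate block, a 3-level replicate block, other filters, quantile normalization, median centring, the mean of a gene's probe sets, an intensity trend, each pair left out and, chosen after seeing the data, all probe sets in 1 fit.

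The members, gene lists and tests were chosen with earlier results of these data known. Named were, among called genes without overlap of pairs, the 12 most negative and 12 most positive interactions (filled up to 8 by p-value), Tlr4, and from each list described at most 4 members, those with the largest interaction. The other called genes, which complete the 47, and Il13ra1, Csf1, Pf4, C1qc, Irf8, Irf9, Myd88, Ticam1, Cd14, Ifnar1, Ifnar2, Aif1 and the genes named as changed in 1 genotype were chosen after their values were seen. Folds are 2 to the power of a log2 change. Promoters are RefSeq's (GRCm38.p6).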

Additional observations from a re-analysis of the deposited data

Results flagged for a closer look

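Each of the 47 genes called for the interaction is a difference between the genotypes' responses under the same contrast, by the limma test of that difference with the pairs, and each is listed here with its interaction on the log2 scale; without the pairing in the model none was called. Among antiviral effectors the values were -2.33 for Ifit1, -2.13 for Ifit2, -1.78 for Rsad2, -1.75 for Mx2, -1.57 for Mx1, -1.55 for Oas3, -1.36 for Oas2, -1.31 for Cmpk2, -1.11 for Xaf1, -1.06 for Ifi27l2a, -0.99 for Ly6e, -0.95 for Slfn8, -0.92 for Trex1 and -0.91 for Helz2. Among sensors, transcription factors, GTPases and enzymes of Isg15 they were -1.75 for Irf7, -1.73 for Usp18, -1.65 for Ifi206, -1.62 for Zbp1, -1.22 for Dhx58, -1.22 for Ifi213, -1.16 for Gm12250, -1.13 for Gbp3, -0.95 for Stat2 and -0.86 for Ube2l6. Chemokines, complement and antigen processing had -1.93 for Ccl5, -1.70 for Cfb, -1.29 for H2-M2, -1.24 for H2-T24, -0.93 for Tap1, -0.78 for Cxcl16, -0.76 for Psmb8 and -0.74 for Psmb10. Surface receptors and lectins had -1.37 for Timd4, -1.18 for Ms4a6b, -1.03 for Lgals9, -1.0 for Fcgr1, -0.81 for Lst1, -0.79 for Siglec1 and -0.75 for Fcgr4. The others had -1.52 for AW112010, -1.41 for Phf11a, -1.13 for Phf11d, -1.08 for Npy, -0.85 for Vnn3 and -0.82 for I830077J02Rik, and the positive values were 0.85 for Chek1 and 0.85 for Hells.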

How the results depend on the processing

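Alternatives were run for the 47 called genes, the 6 next positive genes by p-value, Tlr4 and the medians of the lists, and none of the gene interactions changed sign. The other genes named were not recomputed. Of 31 list medians, 7 were counted as moved under the 50th percentile filter, 4 with no filter, 3 with median centring and 1 with quantile normalization. With a pair left out, 6 moved without each wild-type pair, and 6, 2 and 7 without knockout-labelled pair 1, 2 and 3. Counts of called genes depended on the fit. The interaction called 47 genes, 0 without the replicate block, 0 with a 3-level replicate block (smallest adjusted p 0.325; 611 genes at an unadjusted p under 0.05), 0 with all probe sets in 1 fit, and 27 with no filter on dim probe sets, of which 23 were among the 47. In that fit of all probe sets the prior degrees of freedom fell from 9.71 to 3.82, and the probe sets without a listed gene had a median pair SD of 0.29 against 0.18 for those with 1 symbol. The count was 44 to 59 under the 50th percentile filter, quantile normalization, median centring, the mean of probe sets and the intensity trend, and 20 to 49 with a pair left out. The wild-type change called 570 genes, 2 without the block, 3 with the 3-level block, 16 with all probe sets, 282 with no filter, 1173 with median centring (1091 rises and 82 falls), and 143 to 767 with a pair left out. The knockout-labelled change called 99 genes, 0 without the block, 1 with the 3-level block, 0 with all probe sets, 36 with no filter, 180 with the 50th percentile filter, 174 with median centring, 210 with the intensity trend, 120 with quantile normalization (83 rises and 37 falls), and 2 to 753 with a pair left out. The cause of the shifts under centring and the trend was not tested. With 3 pairs per genotype, no interaction below 0.74 in size was called, and genes dim in knockout-labelled cells have little room to fall.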
